A study of Mus musculus with 16 samples.

Results

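The data described here are the mRNA levels of 10 genes of vitamin A (retinoid) metabolism in sorted intestinal stem and progenitor cells (ISCs) of the mouse, out of 48440 genes listed per table. The genes are *Aldh1a1*, *Aldh1a2*, *Aldh1a3*, *Rbp2*, *Lrat*, *Rdh7*, *Dhrs3*, *Isx*, *Rarb* and *Rara*, and they were picked by symbol with their response to surgery already known. Their differences between surgeries are therefore given as a description, without a p-value. Female Lgr5-EGFP mice, which make green fluorescent protein from the stem cell gene *Lgr5*, ate a diet with 60% fat over 16 weeks before they underwent vertical sleeve gastrectomy (VSG, removal of most of the stomach along its greater curve) or a sham operation. The study's methods give 8 to 16 weeks of age for all its animals, without naming the time point. With 16 weeks of diet before surgery, this cannot be the age at which tissue was taken. At 4 weeks after surgery, the mice received a liquid meal after an overnight fast, and 15 minutes later 6 cm of the duodenum, jejunum and ileum were taken. Immune cells (CD45), endothelial cells (CD31) and dying cells had been gated out before GFP+ cells were collected for RNA-Seq. Each of the 16 libraries is 1 segment of 1 mouse, from 7 mice in all. There were 4 VSG and 2 sham libraries each for duodenum and jejunum, taken from 6 mice that gave both, and 2 VSG (replicates 4 and 5) and 2 sham libraries for the ileum. The sham libraries of every segment came from the same 2 mice. VSG replicate 4 was also the same mouse in every segment. All groups share the diet, the reporter allele and the meal.

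Retinol enters enterocytes from the diet, is bound by a small cytosolic carrier protein, and is mostly esterified for export with lipid. A smaller share is oxidized, first reversibly to retinal and then irreversibly to retinoic acid, which binds nuclear receptors and is known to influence how intestinal cells differentiate. The genes below are taken in that order, from the retinol carrier through the oxidation steps to the receptors.

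Values are normalized counts, which the authors made with DESeq2 within each segment, so a level in one segment is set beside another only as a description. An implied 10.9 to 63.6 M reads (median 40.6 M) stood behind each library, 1 read was worth 0.586 to 2.07 normalized counts, and 65.1% to 78.1% of genes were listed at 0. *Lgr5*, which carries the reporter, was listed at 0 in sham replicate 1 of the jejunum and ileum, both from the same mouse. In the other libraries *Lgr5* lay between 152 and 6565 normalized counts. VSG replicate 1 of the jejunum had 196951 normalized counts of *Fabp6*, an ileal bile acid binding protein, against 15.8 to 313 in the other jejunal libraries. Beside the jejunal and ileal fold changes of the 10 genes stand the values without jejunal VSG replicate 1 and sham replicate 1 together, and without ileal sham replicate 1. Of 12 enterocyte marker genes, all 12 were lower after VSG in both proximal segments, while in the ileum 7 were higher and 5 lower. None met the call thresholds of the limma test described next. Unadjusted p-values under 0.05 were reached by 8, 5 and 0 of them.

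A gene was called where the limma test gave a p under 0.05, a Benjamini-Hochberg adjusted p under 0.2 over all genes tested and an absolute log2 fold change above 0.5 at a mean normalized count above 50. Fold changes are VSG minus sham on the scale log2(normalized count + 1), each with its standard error (SE). *Aldh1a1* was the only one of the 10 genes called, and only in the duodenum, where 4 of 16867 genes were called (0.0237%), all lower after VSG. The duodenal *Aldh1a1* call was lost under 11 of 15 other settings: a pseudocount of 0.5, no filter, a mean above 50, scaling to the same total, no variance trend, an adjusted p under 0.05, the replicate block, and the fits without VSG replicate 2, VSG replicate 4, sham replicate 1 or sham replicate 2. *Aldh1a1* was called in the jejunum without sham replicate 2 or without VSG replicate 1 and sham replicate 1 together, and in the ileum without VSG replicate 5. In the jejunum, 2 of 15857 genes were called (0.0126%), and in the ileum none of 13853 (0%). In the ileum, 3.28% of genes had an unadjusted p under 0.05. Since this contrast was used to choose the 10 genes, the *Aldh1a1* calls are no test of that gene. Nothing is read from them or from their number.

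*Aldh1a1* was lower after VSG in every segment, and its VSG and sham libraries did not overlap in any of them. On the means the sham level exceeded the VSG level 5.23-fold (duodenum), 5.60-fold (jejunum) and 2.35-fold (ileum). *Rdh7*, *Rbp2*, *Lrat* and *Dhrs3* had smaller negative fold changes in both proximal segments and positive ones in the ileum, and relative to enterocyte markers the duodenal signs of *Rbp2*, *Lrat* and *Dhrs3* and the jejunal signs of *Lrat* and *Dhrs3* turned, the jejunal sign of *Rbp2* turned without VSG replicate 1 and sham replicate 1 together, and in the ileum those of *Rdh7*, *Lrat* and *Dhrs3* turned when single libraries were left out. *Isx* and *Rara* had overlapping groups in the duodenum and jejunum. *Rarb*, *Aldh1a3* and *Aldh1a2* were at or near 0 in most libraries.

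**Figure D1:**
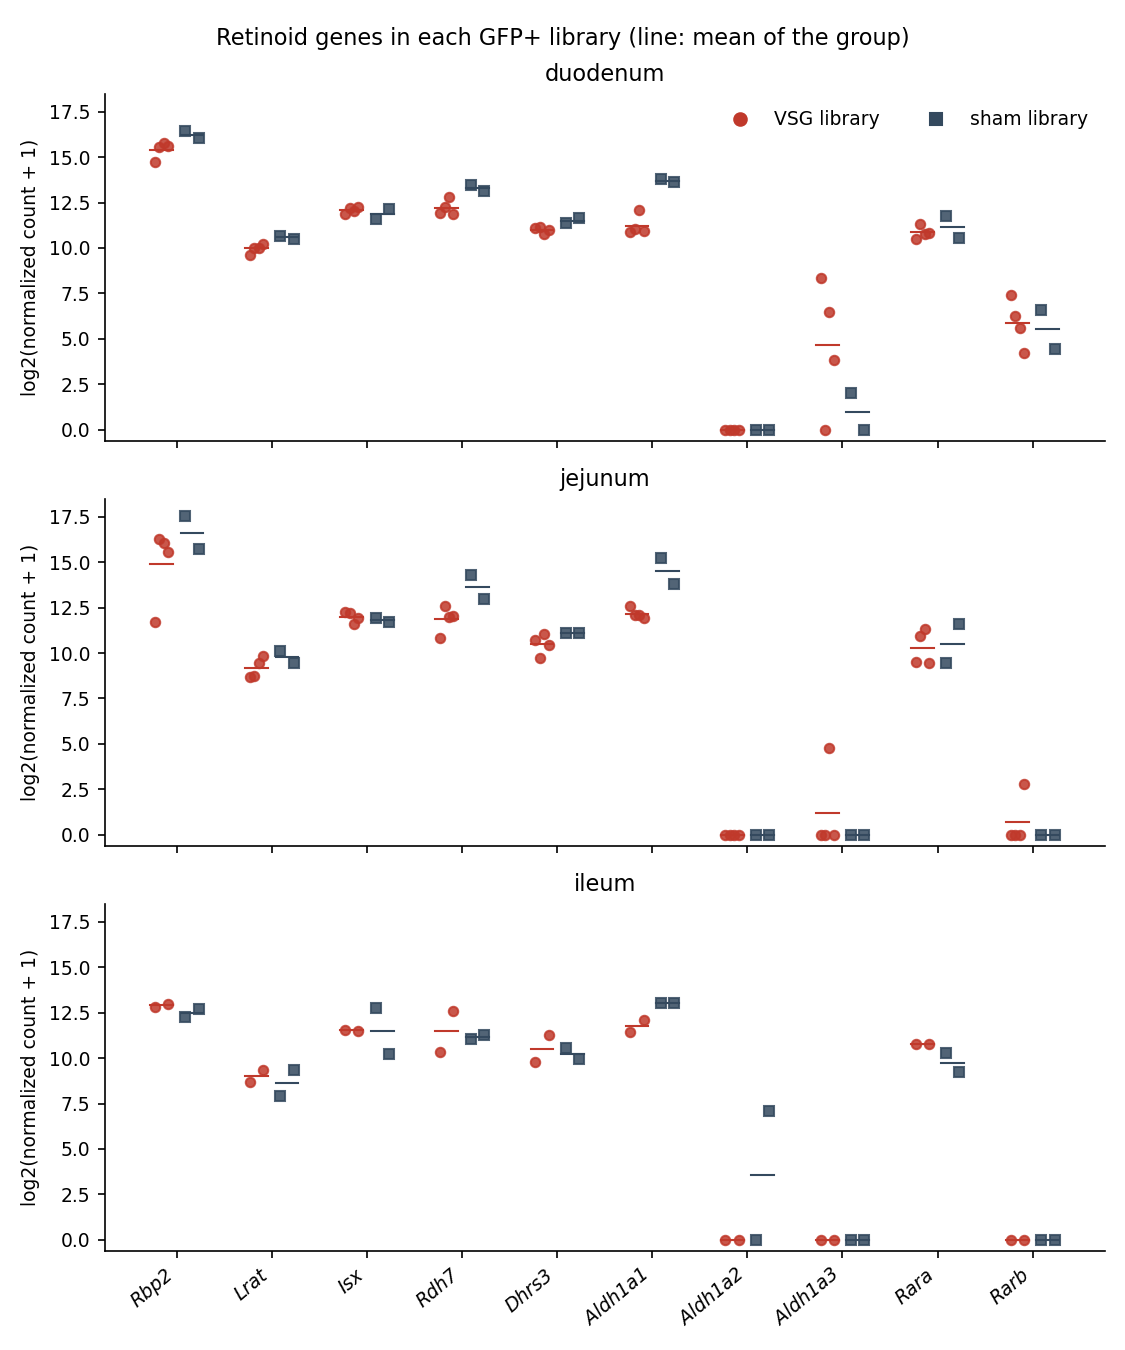
Levels of the 10 retinoid genes as log2(normalized count + 1) in each GFP+ library of the duodenum, jejunum and ileum. Circles are VSG libraries, squares are sham libraries and lines are group means. The *Aldh1a1* circles lie below the squares in all 3 panels, and *Aldh1a2*, *Aldh1a3* and *Rarb* lie at or near 0 in the jejunum and ileum, apart from 1 ileal sham library of *Aldh1a2* (135 normalized counts) and jejunal VSG libraries of *Aldh1a3* (26.0) and *Rarb* (5.86).

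Per kilobase of exon, *Rbp2* had the highest mean level of the 10 genes in every group, 80936 normalized counts per kb in duodenal sham libraries. *Rdh7* (5990 per kb), *Aldh1a1* (2707 per kb) and *Isx* (2102 per kb) followed there. *Aldh1a1* and *Isx* were neighbours whose values nearly met, at 2533 and 2881 per kb for *Aldh1a1* and 1697 and 2507 per kb for *Isx*. *Dhrs3* (1001 per kb), *Rara* (573 per kb) and *Lrat* (286 per kb) came next, and *Rarb* (11.1 per kb) and *Aldh1a3* (0.322 per kb) were far below them. After VSG in the duodenum, *Aldh1a1* was at 517 per kb, below *Isx* (2416 per kb) and *Dhrs3* (704 per kb). *Aldh1a1* thus went from the third to the fifth place in the mean levels. Single VSG libraries departed from this order. In replicate 3 *Aldh1a1* was at 867 per kb, above the 601 per kb of *Dhrs3* there. *Rara* lay above *Aldh1a1* in replicates 2 (581 against 429 per kb) and 4 (416 against 390 per kb). The jejunal sham order was the same down to *Lrat*, with *Aldh1a1* at 5296 per kb and *Isx* at 2016 per kb. After VSG *Aldh1a1* (946 per kb) also lay below *Isx* (2307 per kb) in the jejunum, and in the ileum it was at 1701 per kb in sham and 724 per kb in VSG libraries.

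*Rbp2* (chr9:98486115-98509781, + strand, GRCm38) encodes the cytosolic carrier that binds retinol and retinal in the absorptive cells of the small intestine. In the duodenum it had 26831, 47282, 56048 and 49275 normalized counts after VSG (replicates 1 to 4) and 88228 and 67492 after sham surgery. All VSG libraries were below both sham libraries, with a log2 fold change of -0.83 (SE 0.32). Relative to the summed enterocyte markers this value was 0.11 (SE 0.48), so its sign turned. In the jejunum *Rbp2* had 3345, 78918, 68415 and 47855 normalized counts after VSG and 190115 and 53717 after sham surgery. The groups overlapped, since VSG replicates 2 and 3 exceeded sham replicate 2. The lowest value was that of VSG replicate 1, the library with ileal *Fabp6* levels, and the highest that of sham replicate 1, the library without *Lgr5*. The log2 fold change was -1.73 (SE 1.13) with them and 0.25 (SE 0.38) without both. In the ileum, *Rbp2* had 7160 and 8208 normalized counts after VSG and 4924 and 6543 after sham surgery. Both VSG libraries were above both sham libraries there, with a log2 fold change of 0.43 (SE 0.37), and 0.23 (SE 0.21) without sham replicate 1. The ileal levels were below nearly all proximal ones, and jejunal VSG replicate 1 was the exception.

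The 100 bases before the RefSeq start of *Rbp2* and of 2 other genes discussed below are shown here as examples of windows with a half-site of retinoid receptors, for the most abundant of the 10 genes and for *Aldh1a1* and its neighbour, which share theirs. Windows of *Isx*, *Rara* and *Rarb*, not printed, also hold half-sites this close to the start. Capitals mark hexamer half-sites (AGGTCA and its close forms AGTTCA, then GGGTCA, and also GGTTCA, on either strand) and the TATA motif (TATAAA, either strand). The windows are chr9:98490437-98490536 (+) for *Rbp2*, chr19:20601868-20601967 (+) for *Aldh1a1* and chr19:20727557-20727656 (-) for *Aldh1a7*, in GRCm38.p6, each read 5′ to 3′ on the gene's strand.
Rbp2: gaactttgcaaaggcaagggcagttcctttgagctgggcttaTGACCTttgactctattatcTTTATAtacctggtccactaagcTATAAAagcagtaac
Aldh1a1: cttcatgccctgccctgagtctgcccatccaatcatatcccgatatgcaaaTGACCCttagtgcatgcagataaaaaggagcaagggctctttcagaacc
Aldh1a7: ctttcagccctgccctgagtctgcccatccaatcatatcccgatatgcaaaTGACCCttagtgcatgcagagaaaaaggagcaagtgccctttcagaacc

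*Aldh1a1* and *Aldh1a7* were identical at 94 of these 100 bases, and each held 1 half-site at the same place, 49 bases before the start. In *Rbp2* 1 half-site in the window and a pair of TATA motifs were found. Such matches are common. At least 1 half-site was in 43.7% of the 32851 RefSeq promoter windows of the mouse (250 bases before to 50 after a start), and TATAAA was in 13.6%. RefSeq windows were found for 9 of the 10 genes (16 windows, none for *Aldh1a3*), and 8 windows of 6 genes held a half-site. A direct repeat of 2 half-sites on one strand was searched with 1, 2 or 5 bases between them, which counts the half-sites again. With 5 bases between, it was in 32 windows (0.0974%), of which 1 was the *Rarb* window described with that gene. The 1-base and 2-base spacings were in 0.222% and 0.268% of windows and in none of the 16.

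*Lrat* (chr3:82892579-82903973, -) encodes the acyltransferase that esterifies retinol. In the duodenum it had 783, 1036, 1034 and 1208 normalized counts after VSG and 1601 and 1459 after sham surgery. All VSG values were lower, with a log2 fold change of -0.61 (SE 0.34), which turned to 0.34 (SE 0.57) relative to enterocyte markers. The jejunal values were 413, 429, 694 and 907 after VSG and 1105 and 707 after sham surgery. They overlapped at VSG replicate 4, and the log2 fold change of -0.61 (SE 0.60) turned to 0.49 (SE 0.94) relative to enterocyte markers and was -0.13 (SE 0.58) without VSG replicate 1 and sham replicate 1. The ileal values of 416 and 656 after VSG and 242 and 659 after sham surgery overlapped fully, and the log2 fold change of 0.39 (SE 1.03) turned to -0.33 (SE 0.55) without sham replicate 1.

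*Isx* (chr8:74873173-74893506, +) encodes an intestinal homeobox factor, known to hold back retinoid uptake and carotenoid cleavage when retinoic acid is plentiful. Its duodenal values were 3675, 4740, 4124 and 4789 after VSG and 3043 and 4495 after sham surgery. The jejunal values were 4851, 4739, 3095 and 3858 after VSG and 3833 and 3396 after sham surgery. Groups overlapped in both segments, and the log2 fold changes were 0.22 (SE 0.25), which turned to -0.06 without duodenal sham replicate 1, and 0.17 (SE 0.33), or 0.18 without jejunal VSG replicate 1 and sham replicate 1. In the ileum, the 2 sham libraries had 6818 and 1195 normalized counts and enclosed the VSG values of 3042 and 2900. The higher of them was sham replicate 1, which lacked *Lgr5*. The ileal log2 fold change was 0.06 (SE 0.87), 1.31 without sham replicate 1 and -1.20 without sham replicate 2.

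*Rdh7* (chr10:127884028-127888817, -) encodes a short-chain dehydrogenase that oxidizes retinol to retinal. In the duodenum it had 3822, 4872, 7064 and 3738 normalized counts after VSG and 11183 and 8921 after sham surgery. All VSG values were lower, by a log2 fold change of -1.08 (SE 0.29), and by -0.14 (SE 0.41) relative to enterocyte markers, with overlapping groups. In the jejunum it had 1821, 6125, 4095 and 4138 after VSG and 19824 and 8000 after sham surgery. The VSG values were again all lower, by -1.76 (SE 0.51). Without VSG replicate 1 and sham replicate 1 the jejunal difference was -0.77 (SE 0.33). Relative to enterocyte markers it was -0.66 (SE 0.56), and the VSG libraries (3.36 to 7.25 per 1000 enterocyte marker counts) lay below the sham libraries (8.48 and 9.07). The ileal values of 1288 and 6251 after VSG enclosed the sham values of 2109 and 2439. Their log2 fold change of 0.32 (SE 0.82) was 0.22 without sham replicate 1 and turned to -0.82 without VSG replicate 5. Of the 85-base stretches of its transcripts, 4.96% occur also in transcripts of other genes, among them *Rdh1* and *Rdh19*, so a small part of its reads could belong to these.

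*Dhrs3* (chr4:144892827-144928209, +) encodes a reductase of the reverse reaction, from retinal to retinol, and is itself known as a retinoic acid target. In the duodenum it had 2182, 2305, 1758 and 1993 normalized counts after VSG and 2630 and 3228 after sham surgery. In the jejunum it had 1678, 862, 2097 and 1409 after VSG and 2182 and 2181 after sham surgery. All VSG values were lower in both segments, with log2 fold changes of -0.51 (SE 0.26) and -0.60 (SE 0.44), and both signs turned relative to enterocyte markers, to 0.44 (SE 0.50) and 0.50 (SE 0.75). Without VSG replicate 1 and sham replicate 1 the jejunal value was -0.68 (SE 0.62). The ileal values of 887 and 2446 after VSG and 1491 and 995 after sham surgery overlapped. Their log2 fold change of 0.27 (SE 0.74) was 0.57 without sham replicate 1 and turned to -0.46 without VSG replicate 5 and to -0.02 without sham replicate 2.

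*Aldh1a1* (ENSMUSG00000053279, chr19:20492715-20643465, +) encodes a cytosolic retinal dehydrogenase, 1 of the 3 enzymes that make retinoic acid from retinal. In the duodenum it had 1895, 2116, 4281 and 1926 normalized counts after VSG (replicates 1 to 4) and 14221 and 12507 after sham surgery. The VSG libraries lay close together apart from replicate 3, and all were far below both sham libraries. The means were 2554 ± 1156 (SD, n = 4) and 13364 ± 1212 (SD, n = 2), with a log2 fold change of -2.48 (SE 0.35). The difference exceeded the spread within either group. In this bulk RNA, fewer cells of a type that makes a transcript and less of that transcript per cell cannot be told apart.

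In the jejunum *Aldh1a1* had 6138, 4336, 4333 and 3883 normalized counts after VSG and 38274 and 14024 after sham surgery. Again no VSG library reached a sham library, but the 2 sham libraries differed from each other by more than the whole VSG group did. The jejunal log2 fold change was -2.33 (SE 0.42). It was -1.61 (SE 0.31) without sham replicate 1, -3.06 (SE 0.31) without sham replicate 2 and -1.75 (SE 0.16) without sham replicate 1 and VSG replicate 1 together. In the ileum it had 2778 and 4375 normalized counts after VSG and 8278 and 8513 after sham surgery, with a log2 fold change of -1.27 (SE 0.42), and -1.29 (SE 0.46) without sham replicate 1. All VSG libraries of all segments lay below all sham libraries of all segments, although the tables were normalized separately. These sham libraries came from the same 2 mice, so the segments do not repeat the comparison in new sham animals. The difference between segments was not tested.

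Counting error was small beside these differences. Between 1346 and 34270 reads stood behind an *Aldh1a1* value, and the 95% exact Poisson interval of the fewest-read library, duodenal VSG replicate 1, ran from 1795 to 1999 normalized counts. Such an interval covers counting error only.

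Enterocyte markers had negative fold changes beside *Aldh1a1* in the proximal segments, while in the ileum their median log2 fold change was 0.03. Their sums did not overlap in the duodenum but overlapped in both the jejunum and the ileum. The summed normalized counts of the 12 markers were 339044 to 684850 (median 519017) in duodenal VSG libraries against 791687 and 1166123 in sham libraries. In the jejunum they were 541235 to 1009755 (median 605362) against 881671 and 2338149, and in the ileum 370003 and 682765 against 639404 and 771796. No enterocyte marker was at 0 in every library of a segment. Per 1000 enterocyte marker counts, *Aldh1a1* stood at 3.57 to 6.25 after VSG and 12.2 and 15.8 after sham surgery in the duodenum. It stood at 4.29 to 11.3 against 15.9 and 16.4 in the jejunum, and at 6.41 and 7.51 against 10.7 and 13.3 in the ileum. The groups still did not overlap in any segment, and the jejunal sham libraries, with 38274 and 14024 *Aldh1a1* counts, were nearly alike on this scale. Relative to the markers, the duodenal, jejunal and ileal log2 fold changes were -1.53 (SE 0.44), -1.23 (SE 0.56) and -0.78 (SE 0.51), while this scaling put the median gene at 0.96, 1.20 and 0.75.

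**Figure D2:**
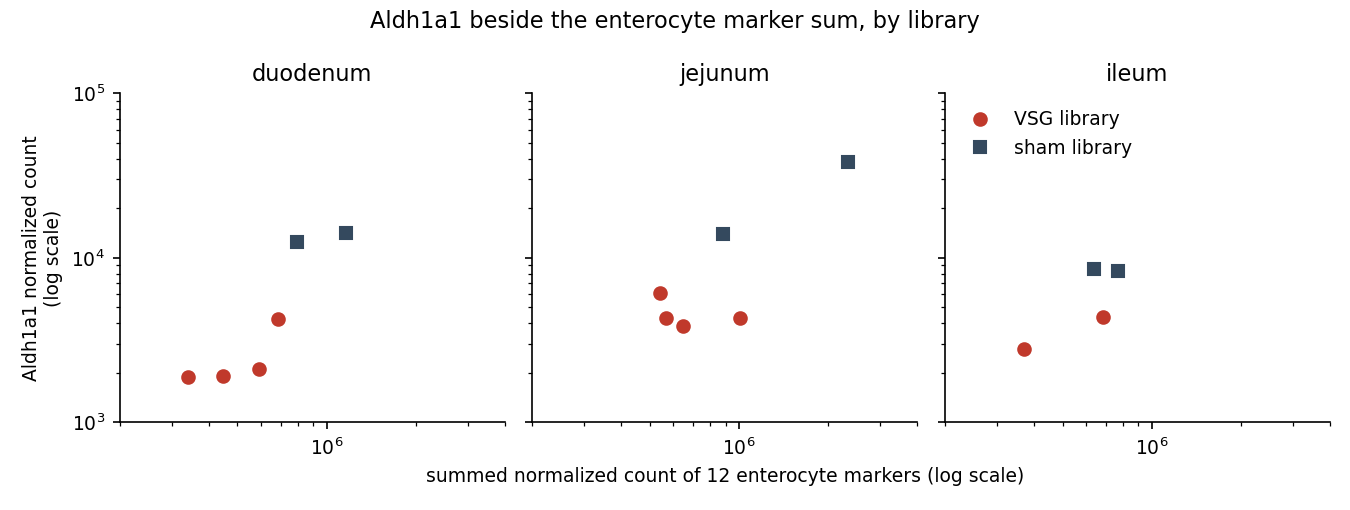
*Aldh1a1* normalized counts (vertical, log scale) against the summed normalized counts of 12 enterocyte markers (horizontal, log scale) in each library. The sham squares lie above the VSG circles in each segment. Jejunal VSG replicate 2 (marker sum 1009755, 4336 *Aldh1a1* counts) and sham replicate 2 (marker sum 881671, 14024 *Aldh1a1* counts) have like marker sums. Single markers of this pair differed both ways, as *Alpi* (9253 and 20838) and *Apoa1* (247397 and 159963). The part of cell composition was not tested.

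Markers of other cell types were read beside this. The summed normalized counts of 8 stem cell markers were 72088 to 141435 after VSG and 83207 and 88105 after sham surgery in the duodenum. In the jejunum they were 37100 to 54370 after VSG, against 12549 and 49362 after sham surgery, the lower value in sham replicate 1. In the ileum they were 10036 and 15456 after VSG and 6470 and 8504 after sham surgery. Tuft cell markers (5 genes) summed to 13078 to 27055 after VSG and 4010 and 10011 after sham surgery in the duodenum, where 4 of the 5 were higher at an unadjusted p under 0.05, and overlapped in the other segments. Goblet cell markers (6 genes) overlapped in the duodenum and in the jejunum (180493 to 342036 against 88535 and 204703), where all 6 had positive fold changes and 4 had an unadjusted p under 0.05. In the ileum they were 123894 and 164169 against 69432 and 114559. Sums of Paneth and enteroendocrine markers overlapped in every segment.

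Immune markers (8 genes) were low but higher after VSG in each segment, with 498 to 3244 against 242 and 405 in the duodenum, 734 to 1253 against 441 and 640 in the jejunum, and 193 and 397 against 0 and 123 in the ileum. *Itgax*, a defining marker of dendritic cells, was listed at 0 in every library. Stromal markers (8 genes) summed to 42 to 211 after VSG and 291 and 2595 after sham surgery in the duodenum, overlapped in the jejunum, and were 63 and 133 against 356 and 466 in the ileum. The 2 ileal enterocyte markers summed to 32093 and 80535 after VSG and 156558 and 223439 after sham surgery in the ileum, and both had an unadjusted p under 0.05 there. None of these genes met the call thresholds. The part of cell composition in the *Aldh1a1* difference was not tested.

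Among 10712 genes with a mean above 50 in every segment, the 5 genes most like *Aldh1a1* were *Fabp2*, *Alpi*, *Slc6a20a*, *Cmbl* and *Uap1l1*. Likeness was the Pearson correlation of log2 values centred on each segment's mean over the 16 libraries, and it was 0.97, 0.95, 0.92, 0.91 and 0.91. It is a description only, because the libraries come from 7 mice and the difference between surgeries is part of it. *Fabp2*, a fatty acid binding protein, and *Alpi*, an alkaline phosphatase, are both in the enterocyte marker list. *Aldh1a7* came sixth at 0.90. Of the 10 retinoid genes, *Rdh7* was the most like *Aldh1a1* at 0.70, followed by *Lrat* (0.45), *Dhrs3* (0.45) and *Rbp2* (0.38), and *Rara* (-0.11) and *Isx* (-0.14) were not like it.

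*Aldh1a7* (chr19:20692953-20727562, -) is the close relative and next neighbour of *Aldh1a1*, 49.5 kb away with 0 genes annotated between them. The coding sequences are both 1503 bases long and 91.6% identical. Of the 85-base stretches of *Aldh1a1* transcripts, which is the read length, 0.547% occur also in *Aldh1a7*, so few reads could belong to either. An example of how the pair differ is the first 85 bases of exon 3 (chr19:20617880-20617964 and chr19:20722334-20722418 in GRCm38), where the 2 differing bases are in capitals.
Aldh1a1: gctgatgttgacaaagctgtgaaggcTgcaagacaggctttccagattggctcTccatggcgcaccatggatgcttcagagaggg
Aldh1a7: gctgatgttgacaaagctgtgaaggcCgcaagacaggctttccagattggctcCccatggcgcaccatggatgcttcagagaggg

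*Aldh1a7* had 408, 406, 424 and 475 normalized counts after VSG and 1610 and 1110 after sham surgery in the duodenum. The VSG values were closely grouped and all lower, with a log2 fold change of -1.64 (SE 0.44, limma adjusted p = 0.485). In the jejunum it had 1265, 1322, 1062 and 875 after VSG and 4017 and 1874 after sham surgery, all lower, with -1.30 (SE 0.45, limma adjusted p = 0.760). In the ileum, 469 and 1612 after VSG and 1995 and 1611 after sham surgery overlapped, with -1.04 (SE 0.80, limma adjusted p = 0.736). Without VSG replicate 1 and sham replicate 1 the jejunal value was -0.81 (SE 0.34), and without sham replicate 1 the ileal one was -0.89 (SE 1.19). *Aldh1a7* thus had the sign of *Aldh1a1* in each segment without meeting the thresholds. Relative to enterocyte markers the values were -0.69 in the duodenum and -0.56 in the ileum, without overlap, and -0.19 in the jejunum, with overlap. It amounted to 9.91% to 24.7% of the *Aldh1a1* count in duodenal VSG libraries and to 8.88% and 11.3% in sham libraries.

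**Figure D3:**
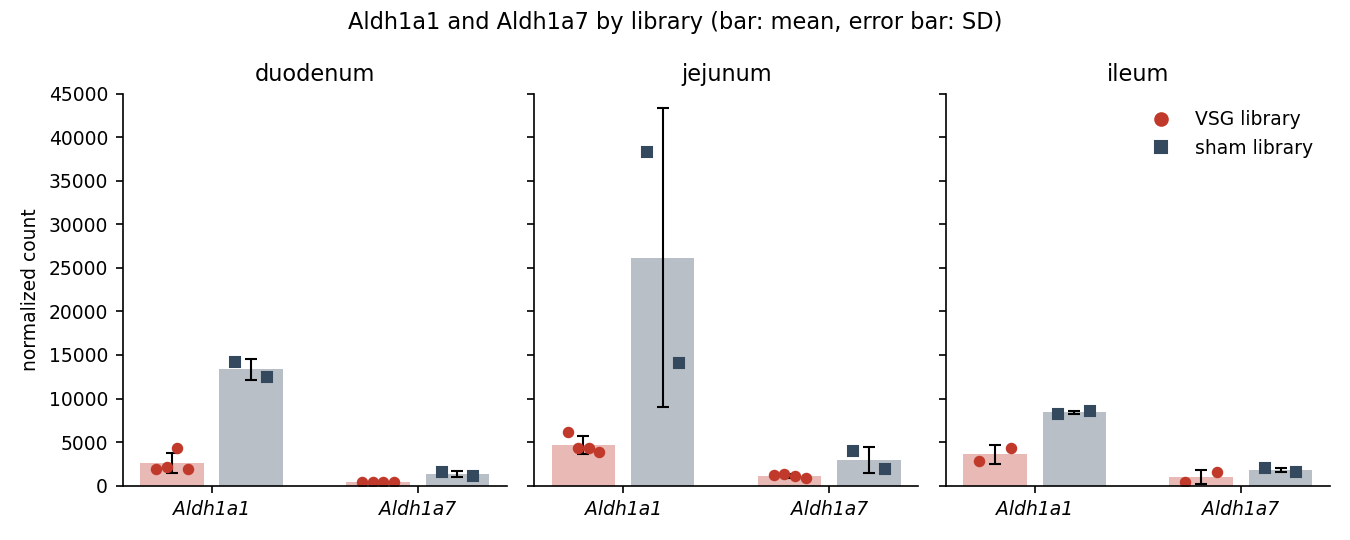
Normalized counts of *Aldh1a1* and its neighbour *Aldh1a7* in each segment. Points are libraries, bars are group means and error bars are SD (n = 4 VSG and 2 sham in the duodenum and jejunum, n = 2 and 2 in the ileum), and the *Aldh1a1* VSG libraries (1895 to 6138) lie below all sham libraries (8278 to 38274).

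The other enzymes of the same step were scarcely detected. *Aldh1a2* (chr9:71215789-71296243, +) was listed at 0 in every duodenal and jejunal library and in 3 of 4 ileal libraries, and it had 135 normalized counts in ileal sham replicate 2, the library of least depth. *Aldh1a3* (chr7:66390890-66427517, -) had 321, 0, 88.1 and 13.2 normalized counts after VSG in the duodenum and 2.97 and 0 after sham surgery. It was at 26.0 in jejunal VSG replicate 3 and listed at 0 in the other jejunal libraries and in all ileal ones. A value of 0 allows up to 3 reads, or 1.76 to 6.21 normalized counts by library, counting error only. The higher *Aldh1a3* values after VSG rest on 2 duodenal libraries, and the groups overlap.

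*Rara* (chr11:98927818-98974942, +) encodes retinoic acid receptor alpha. Its duodenal values were 1463, 2535, 1744 and 1817 after VSG and 3491 and 1515 after sham surgery. Its jejunal values were 720, 1938, 2540 and 702 after VSG and 686 and 3108 after sham surgery. Libraries of one group differed several-fold and the groups overlapped, with log2 fold changes of -0.31 (SE 0.39) and -0.22 (SE 0.73). The duodenal sign turned relative to enterocyte markers (0.64) and without sham replicate 1 (0.29). The jejunal sign turned at the same total, relative to enterocyte markers, and without VSG replicate 1, VSG replicate 4 or sham replicate 2, while without VSG replicate 1 and sham replicate 1 together the value was -1.04 (SE 0.91). In the ileum *Rara* had 1721 and 1770 normalized counts after VSG and 1255 and 594 after sham surgery. Both VSG values were higher, with a log2 fold change of 1.01 (SE 0.68), and 1.55 (SE 0.26) without sham replicate 1.

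*Rarb* (chr14:16430839-16819156, -) encodes retinoic acid receptor beta, a classical target of retinoic acid. Its RefSeq promoter window was the one with a direct repeat of 2 half-sites 5 bases apart, which starts 53 bases before the start, at chr14:16575513-16575529 (-), inside the untranslated first exon that GENCODE gives *Rarb* transcripts with an earlier start. It is shown because it was the only such repeat among the 16 windows. Capitals mark the half-sites.
Rarb: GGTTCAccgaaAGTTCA

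*Rarb* had 169, 75.7, 47.9 and 17.4 normalized counts after VSG and 96.1 and 21.0 after sham surgery in the duodenum. The groups overlapped, and the log2 fold change of 0.34 (SE 1.49) was smaller than its error and turned sign under quantile normalization (-0.16), without VSG replicate 1 (-0.17) and without sham replicate 2 (-0.73). It was 5.86 in jejunal VSG replicate 4, and *Rarb* was listed at 0 in the other jejunal and in all ileal libraries.

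**Figure D4:**
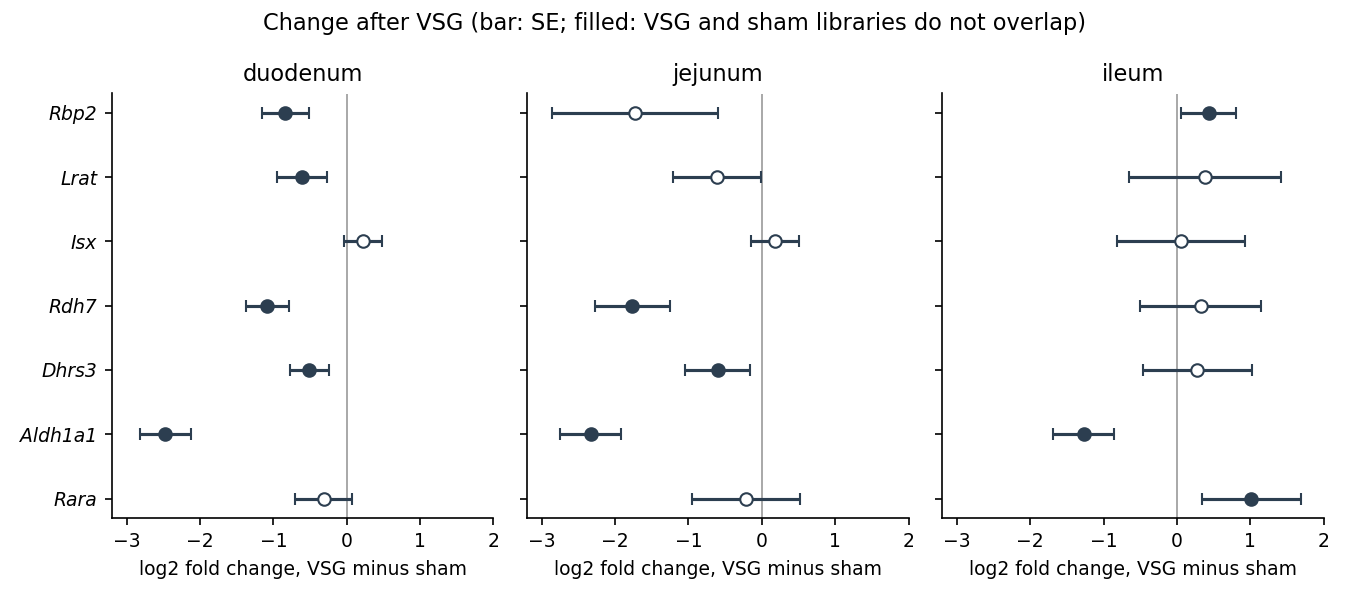
Log2 fold changes of 7 retinoid genes (VSG minus sham, horizontal) in the duodenum, jejunum and ileum, with bars of 1 SE. Filled points mark genes whose VSG and sham libraries do not overlap; *Aldh1a1* is filled and below 0 in all 3 segments, while *Rbp2* is filled below 0 in the duodenum (-0.83) and above 0 in the ileum (0.43). The signs of *Rbp2*, *Lrat* and *Dhrs3* in the duodenum turn when set relative to enterocyte markers.

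Counted over the genes, all VSG libraries were below all sham libraries for 5 of the 9 tested retinoid genes in the duodenum, where 8.01% of all genes were, and for none above (6.44%). In the jejunum this held for 3 of 7 genes below (6.21%) and none above (6.59%). In the ileum, 1 of 8 was below (11.6%) and 2 were above (17%). The 10 genes were chosen with these contrasts known, so the shares stand side by side without a reading. *Aldh1a2* in the duodenum, *Aldh1a2*, *Aldh1a3* and *Rarb* in the jejunum, and *Aldh1a3* and *Rarb* in the ileum had a mean normalized count of 10 or less and were not fitted.

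A list of 55 other retinoid genes, spanning uptake, binding proteins, ester synthesis, oxidoreductases, dehydrogenase relatives, catabolism, receptors and target genes, was tested beside them. In the duodenum 43 passed the filter, in the jejunum 42 and in the ileum 39. None was called in any segment by limma, with or without the variance trend. An unadjusted p under 0.05 was reached by 4 genes in the duodenum, all lower, where 6.27% of all genes reached it (3.48% lower and 2.79% higher). In the jejunum 6 genes reached it, 3 higher and 3 lower, against 6.04% of all genes (2.4% lower and 3.63% higher). In the ileum no gene of the list reached it, against 3.28% of all genes (1.19% lower and 2.09% higher). From duodenum to ileum the median log2 fold change of the list was -0.37, -0.08 and 0.67, beside 0.01, 0.11 and 0.24 over all genes tested.

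Besides *Aldh1a7*, the lower genes with an unadjusted p under 0.05 were *Adh4*, *Cd36* and *Scarb1* in the duodenum and *Adh1* and *Ces1e* in the jejunum. *Adh4* and *Adh1* encode alcohol dehydrogenases, enzymes that can oxidize retinol. *Adh4* had 826, 310, 843 and 815 normalized counts after VSG and 7480 and 2227 after sham surgery in the duodenum. Its log2 fold change was -2.65 (SE 0.58, limma adjusted p = 0.387), and -1.70 relative to enterocyte markers, without overlap on either scale. *Adh1*, the most abundant per kb of the list's 4 alcohol dehydrogenases in each segment, had 7449, 19579, 15543 and 13942 after VSG and 68622 and 27516 after sham surgery in the jejunum. All VSG values were lower, with a log2 fold change of -1.70 (SE 0.48, limma adjusted p = 0.760), -0.60 relative to enterocyte markers, and -0.77 (SE 0.27) without VSG replicate 1 and sham replicate 1. The duodenal *Adh1* value of -0.54 (SE 0.28) turned to 0.41 relative to the markers, and the ileal value was positive, at 1.12 (SE 0.92) with overlapping groups and 0.36 (SE 1.30) without sham replicate 1. Of 17 tested oxidoreductases, 13 were lower and 4 higher in the duodenum (median -0.56), where 8317 of all 16867 genes were lower. In the jejunum 8 of 16 were lower and 8 higher (median -0.16), where 7139 of 15857 genes were lower. In the ileum 4 of 14 were lower and 10 higher (median 1.65), where 5959 of 13853 genes were lower. Many of the higher ileal values rest on libraries listed at 0, as *Dhrs9* (6.34, SE 3.17) and *Rdh13* (5.12, SE 3.36). So does the lower ileal value of *Adh4* (-3.57, SE 3.48).

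*Cd36*, a fatty acid transporter also linked to carotenoid uptake, had 669, 608, 997 and 1149 normalized counts after VSG and 2401 and 1817 after sham surgery in the duodenum. Its log2 fold change was -1.34 (SE 0.39, limma adjusted p = 0.533), with no overlap, and -0.39 relative to enterocyte markers, with overlap. In the jejunum and ileum its groups overlapped. The jejunal value of -3.36 (SE 2.65) turned to 0.11 without VSG replicate 1 and sham replicate 1. The ileal value of 4.17 (SE 3.39) was 8.71 without sham replicate 1. It turned to -0.38 without sham replicate 2, where *Cd36* was listed at 0. *Scarb1*, a scavenger receptor that takes up carotenoids, had 1169, 307, 299 and 505 after VSG and 1129 and 1776 after sham surgery. Its groups overlapped at VSG replicate 1, with -1.55 (SE 0.62, limma adjusted p = 0.720), and -0.60 relative to enterocyte markers. In the jejunum the *Scarb1* value was 3.04 (SE 3.00), from 0, 311, 319 and 214 after VSG against 0 and 67.8, and it was listed at 0 in 3 of 4 ileal libraries. *Ces1e*, a carboxylesterase, was lower in the jejunum at 86.5, 366, 425 and 1101 after VSG against 1368 and 1650 (log2 fold change -2.10, SE 0.92, limma adjusted p = 0.760). The *Ces1e* groups overlapped at the same total (-1.87) and relative to enterocyte markers, and the value was -1.57 (SE 0.84) without VSG replicate 1 and sham replicate 1.

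The genes on the higher side in the jejunum were *Tgm2*, *Stra6l* and *Rdh5*. *Tgm2*, which encodes tissue transglutaminase and is inducible by retinoic acid, had 6863, 6293, 5663 and 7645 normalized counts after VSG and 3095 and 4205 after sham surgery. Its log2 fold change was 0.87 (SE 0.31, limma adjusted p = 0.760), and 0.62 (SE 0.24) without VSG replicate 1 and sham replicate 1. For *Tgm2* the VSG libraries were also above the sham libraries in the duodenum (0.57, SE 0.32) and ileum (0.80, SE 0.56), also when set relative to enterocyte markers (1.52, 1.97 and 1.28 from duodenum to ileum). Of the list's tested target genes, *Tgm2* among them, 4 of 5 were higher in the duodenum and 2 of 4 in the jejunum. In the ileum 3 of 4 were. Over all genes tested, 8550 of 16867, 8718 of 15857 and 7894 of 13853 were higher. *Stra6l*, a relative of the retinol transporter gene *Stra6*, had 1313, 1937, 1689 and 1618 after VSG and 853 in sham replicate 2, and was listed at 0 in sham replicate 1 (limma adjusted p = 0.760). Without VSG replicate 1 and sham replicate 1 its log2 fold change was 1.03 (SE 0.23). *Rdh5* had 11.5, 56.5, 235 and 291 after VSG and was listed at 0 in both sham libraries (limma adjusted p = 0.760). The *Stra6l* VSG libraries lay above the sham libraries in all 3 segments as well, with 2198 to 5372 against 1628 and 2198 in the duodenum, where the closest 2 libraries differed by less than 1 count, and 485 and 604 against 190 and 89.0 in the ileum. For *Tgm2* and *Stra6l* too, the sham libraries of all segments came from the same 2 mice.

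**Figure D5:**
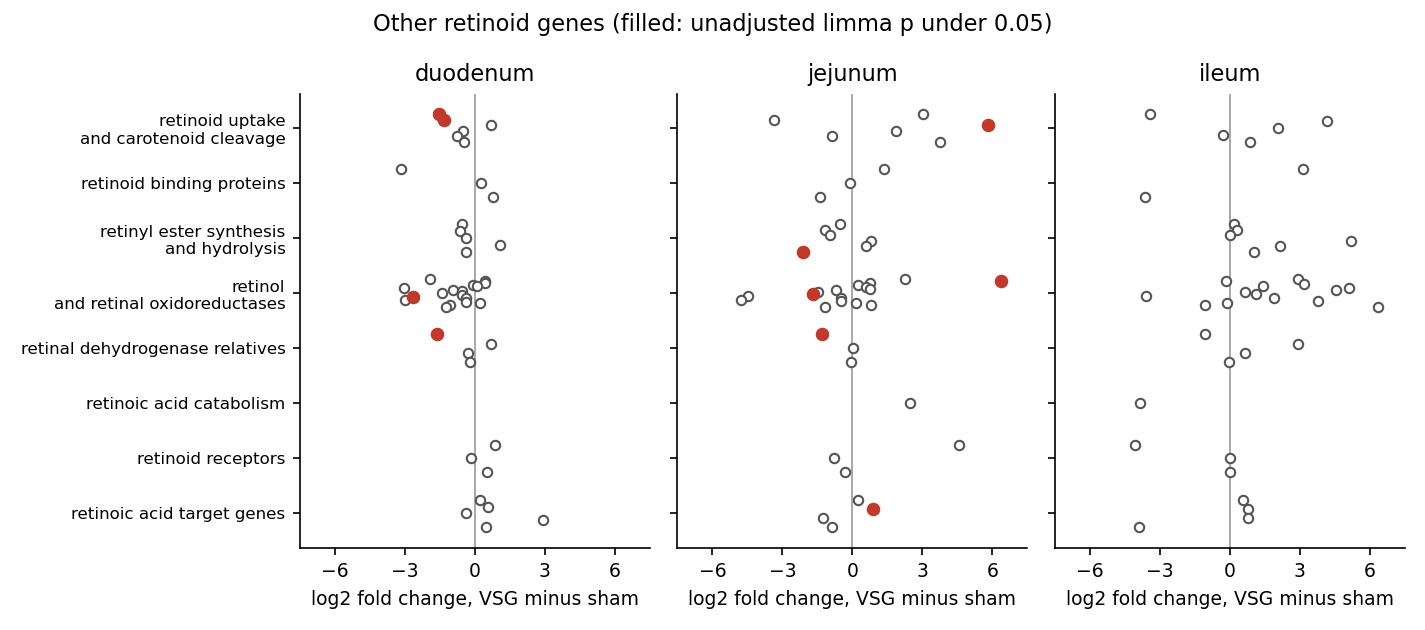
Log2 fold changes (VSG minus sham, horizontal) of the 43, 42 and 39 tested genes of 8 other retinoid groups (rows) in the duodenum, jejunum and ileum. Each point is a gene; filled points have an unadjusted limma p under 0.05, which 4, 6 and 0 genes reached, and none met the call thresholds.

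*Aldh1b1* and *Aldh2*, further aldehyde dehydrogenases, had overlapping groups in the proximal segments. *Aldh1b1* stood at 21870 and 17735 normalized counts per kb in duodenal sham and VSG libraries, above *Aldh1a1* (2707 and 517 per kb). Its duodenal log2 fold change of -0.30 (SE 0.23) turned to 0.65 relative to enterocyte markers. In the ileum both *Aldh1b1* VSG libraries lay above both sham libraries, with 0.64 (SE 0.36), and 1.12 relative to enterocyte markers. Without ileal sham replicate 1 the value was 0.32. For *Aldh2* the duodenal, jejunal and ileal log2 fold changes were -0.21 (SE 0.24), -0.06 (SE 0.31) and -0.02 (SE 0.38), and all turned sign relative to enterocyte markers, the jejunal one also without VSG replicate 1 and sham replicate 1 (0.05) and the ileal one without sham replicate 1 (0.20). Among partner receptors, *Rxra* overlapped between groups in each segment, at -0.15 (SE 0.25), -0.80 (SE 0.38) and 0.01 (SE 0.43) from duodenum to ileum. Relative to enterocyte markers *Rxra* was at 0.80, 0.30 and 0.49, and only the jejunal groups overlapped. *Rxrb* was higher in all duodenal VSG libraries by 0.53 (SE 0.24). Its groups overlapped in the jejunum (-0.34, SE 0.49) and ileum (0.02, SE 1.07). The retinoic acid hydroxylases *Cyp26a1* and *Cyp26c1* were listed at 0 in 15 of 16 libraries each, as was *Rdh19*, and *Rxrg*, *Stra8*, *Crabp1* and *Rdh8* in all 16.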

How the data were processed

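RNA-Seq of GFP+ cells in 16 libraries of 7 mice was used. Reads of 85 bases had been mapped by the authors to mm10 (STAR 2.5.3a) and assigned to transcripts (Salmon 0.6.0), and the signal deposited for a gene in a library is its count after DESeq2 normalization over the libraries of that segment. At most 63.6% of values below 1000 implied reads were whole reads within 0.01, so limma took the place of a count model. The deposited tables of VSG against sham (fold changes, standard errors and p-values) were not used. The methods state that libraries of low mapping had been left out, 1 sham library per segment and 2 ileal VSG libraries.

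The 10 genes and all lists were chosen with earlier results of these data known. Each segment was fitted with limma 3.58.1 (R 4.3.3, variance trend) on log2(normalized count + 1), keeping genes whose mean exceeded 10, and the step was tested on simulated data. The thresholds were those of the study, which applied them to the results of its own test. With that test the study reported many more changed genes in each segment than the limma fits called here. It also reported *Sis*, *Alpi*, *Enpp7* and *Apoc3* as lower after VSG in the duodenum and jejunum. The small numbers of calls given here therefore hold for the limma fits only. Segments were not compared by a test, since their tables were normalized separately. Groups came from the labels. Labels of the jejunum and ileum give the mouse but no replicate number, so these numbers were assigned here, with the same number for the same mouse. No table held other columns of values per library. Named genes are the 10, the other list genes with an unadjusted p under 0.05 and *Aldh1a7*, the 5 genes most like *Aldh1a1*, and *Lgr5* with markers whose values stand beside a result. *Aldh1b1*, *Aldh2*, *Rxra*, *Rxrb* and the genes listed at 0 were named after their values were seen.

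GENCODE M21 (GRCm38) gave positions and transcripts for 48058 of 48440 identifiers, and RefSeq (GRCm38.p6) the promoter windows. Python 3.11.15 was used with Biopython 1.88 (sequences), pandas 2.3.3, numpy 2.4.6, scipy 1.17.1 (intervals) and matplotlib 3.10.9. Other settings were a pseudocount of 0.5 or 10, no filter or a mean above 50, quantile normalization, equal library totals, an adjusted p under 0.05, the replicate number as a block, limma with no variance trend, and each library left out in turn. Scaling to enterocyte markers, leaving out jejunal VSG replicate 1 and sham replicate 1 together, and the fits of other named retinoid genes without libraries were chosen after seeing the data.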

Additional observations from a re-analysis of the deposited data

Results flagged for a closer look

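Of 22 groups of 4 libraries, 3 held a library far from the others. This count cannot be set beside a chance rate, since *Aldh1a2* was at 0 throughout in the duodenum and jejunum and could not be flagged. *Aldh1a1* in duodenal VSG replicate 3 was at 4281 normalized counts, against 1895 to 2116 in the other VSG libraries, and lay below both sham libraries. This library also had 8023 summed normalized counts of 6 pancreatic acinar cell markers. The other duodenal VSG libraries had 0 to 1482 of them and both sham libraries 0. A link between these values was not tested. *Aldh1a3* was at 26.0 in jejunal VSG replicate 3 and *Rarb* at 5.86 in jejunal VSG replicate 4, with all other jejunal libraries listed at 0. In these groups any single value above 0 would have been flagged. *Rbp2* lay lower in all duodenal VSG libraries (log2 fold change -0.83, and 0.11 relative to enterocyte markers) and higher in both ileal VSG libraries (0.43). Whether the segments differ was not tested.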

How the results depend on the processing

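*Aldh1a1* kept its negative sign under all 14, 15 and 11 alternatives run in the duodenum, jejunum and ileum. Its duodenal call held under 4 of 15 settings (a pseudocount of 10, quantile normalization, and without VSG replicate 1 or 3). Because the gene was chosen with this contrast known, the call is no test of it. Relative to enterocyte markers it was -1.53, -1.23 and -0.78. In the jejunum it ranged from -3.06 (without sham replicate 2) to -1.61 (without sham replicate 1) when 1 library was left out, and it was -1.75 without VSG replicate 1 and sham replicate 1 together. Of 317 fold changes of the 10 genes under alternatives, 22 changed sign, none of them of *Aldh1a1* or of *Rdh7* in the proximal segments. Counts of all genes called depended on the setting. The duodenal 4 became 0 with a pseudocount of 0.5, no filter, a mean above 50, the same total, an adjusted p under 0.05 or the replicate block, 10 with a pseudocount of 10, 43 without trend, and 0 (without VSG replicate 4) to 259 (without sham replicate 1) when 1 library was left out. The jejunal 2 became 1 at an adjusted p under 0.05, 0 with the replicate block, 61 without trend, 48 without VSG replicate 1 and sham replicate 1 together, and 1 to 2710 (without sham replicate 2) when 1 library was left out. The ileal 0 became 3 with a pseudocount of 10, 463 without trend, and 0 to 631 when 1 library was left out (625 without VSG replicate 4 and 631 without VSG replicate 5). Other retinoid genes called numbered 0 in each segment, up to 10 in the jejunum (without sham replicate 2) and 2 in the ileum (without VSG replicate 4). Those with an unadjusted p under 0.05 numbered 2 instead of 6 in the jejunum with the replicate block and 4 to 12 when 1 library was left out. In the ileum they numbered 1 without filter, with a mean above 50, by quantile normalization, at the same total or without trend, and 3 to 9 when 1 library was left out. The cause of these shifts was not tested. The replicate block pairs VSG and sham replicates 1 and 2, which are different mice, and the deviations of same-numbered libraries correlated at -0.05 and -0.03 in the duodenum and 0.05 and 0.01 in the jejunum. With the block, *Aldh1a1* was -2.74 in the duodenum and -2.17 in the jejunum. No paired analysis was possible in the ileum because its groups share no replicate number. Scaling to the same total put the median gene at 0.34 in the jejunum and 0.35 in the ileum. Groups of 2 sham libraries limit every value, and levels under 3 reads cannot be told from 0.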
